A study of Homo sapiens with 16 samples.

Results

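The CC chemokine genes of human chromosome 17 were examined for histone H3 lysine 27 acetylation (H3K27ac), a mark of active promoters and enhancers, in THP-1 cells, a human monocytic line from acute myeloid leukemia. The members were CCL2, CCL3, CCL3L3, CCL4, CCL4L2, CCL5, CCL7 and CCL8. Their windows were the rows of the deposited table that carried a member's gene name and lay within 50000 bp of the transcription start site (TSS) given there. This rule used gene names and distances and no acetylation values, and it found 28 of 151654 windows of 1000 bp, each set on an ATAC-seq peak. The list of members was, however, chosen with earlier results of these data known. CCL2 had 10 windows, CCL8 and CCL4L2 had 6 each, CCL5 had 3, CCL3L3 had 2 and CCL3 had 1. CCL4 and CCL7 had 0 windows under their own names and are absent from the counts of members.

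The study asked how loss of USP18, a protease that removes ISG15 and restrains signaling from the type I interferon (IFN) receptor, changes the response to IFN. H3K27ac ChIP-seq was read in 4 groups of 2 libraries, described as biological replicates of a cell line. WT cells had the genotype label Cas9 only, while the protocol names a control sgRNA. USP18-/- cells (Crispr USP18KO) came from lentiviral guides and, by the study's methods, were grown from sorted single cells, so that the deletion and the clone cannot be told apart. Cells of either genotype were untreated or received IFNα at 1000 U/ml for 6 h, and the 8 input libraries were not analysed here. The p-values measure the spread between these cultures alone.

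CC chemokines are small secreted proteins that bind heparan sulfate and steer leukocytes along a gradient. CCL2, CCL7 and CCL8 are monocyte chemoattractants that act mainly on CCR2, CCL3, CCL4 and CCL5 attract T cells, NK cells and monocytes through CCR1 and related receptors, and CCL3L3 and CCL4L2 are close copies of CCL3 and CCL4 that differ in number between people. In monocytes these genes are textbook targets of NF-κB, and several carry interferon stimulated response elements (ISRE), which bind STAT and IRF factors. They sit in a pair of clusters on the long arm, with CCL2, CCL7 and CCL8 in the proximal cluster and the others in the distal cluster.

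Of the 28 windows, 23 were annotated as intergenic, 4 as promoter and 1 as 5′ UTR, and 5 lay within 3000 bp of the TSS in the table. All coordinates are hg38. The CCL2 windows ran from -34274 to 6857 bp around the CCL2 TSS, and the window over that TSS was chr17:34254687-34255687. The CCL8 windows ran from -12435 to 8735 bp. For the nearest CCL8 window, chr17:34318748-34319748, the table counted 201 bp from its TSS, whereas GENCODE 44 starts CCL8 farther downstream and gives -187 bp. The CCL5 windows were chr17:35879966-35880966 over the promoter and first exon, chr17:35889682-35890682 and chr17:35891820-35892820, both intergenic and upstream. The CCL3 window, chr17:36089862-36090862, covered the CCL3 promoter and also an exon of the antisense gene CCL3-AS1. The start of CCL7 (34270221) had no window named for it, and the closest member windows were those at 6459 and 6857 bp of CCL2.

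The copy genes need care with names. In 24 of 28 windows the gene in the table was also the nearest coding gene in GENCODE, and in 4 it was not. These 4 windows, at 4576, 21706, 24282 and 27784 bp, are listed as CCL4L2 but lie behind CCL4. The windows over the starts of CCL4, CCL4L2 and CCL3L3 exist in the table under the names CCL4L1 and CCL3L1. In all 7 windows carry these names, 4 at those starts, 1 behind CCL3 and 2 farther upstream of CCL3L3, and they are not counted with the members. The upstream sequences below show how alike a gene and its copy are, with the only differing base in capitals. CCL3 and CCL3L3 differed at 1 of 70 bases (chr17:36090170-36090239 and chr17:36196785-36196854, minus strand).
CCL3: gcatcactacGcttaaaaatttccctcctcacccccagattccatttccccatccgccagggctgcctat
CCL3L3: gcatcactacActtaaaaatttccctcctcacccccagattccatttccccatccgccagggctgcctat
Over whole windows, 47.1% of the 32-base stretches at the CCL4 start recurred at the CCL4L2 start, and 16.6% of those at the CCL3 start recurred at the CCL3L3 start. Of the 100-base stretches, 11.9% at the CCL4 start and 12.2% at the CCL4L2 start recurred in the genome. The share was 0% over the CCL3 and CCL3L3 starts and 19.3% at 7204 bp behind CCL3 and at 7574 bp of CCL3L3. By the study's reporting summary reads were paired and longer than 100 bases. Reads wholly within a recurring stretch cannot be assigned with certainty to a copy. The levels of the CCL3 and CCL4 copies are thus uncertain to an extent that was not tested. CCL2, CCL8 and CCL5 have no such copy, and in 16 of their 19 windows under 10% of the 32-base stretches recurred in the genome.

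Exact motif matches on either strand were searched in all windows. The degenerate NF-κB consensus, given here by name alone, was found in 7 of 28 member windows (25%) and in 21.8% of all windows. The ISRE core GAAANNGAAA was found in 4 member windows (14.3%) and in 17.2% of all windows. The AP-1 site TGANTCA was found in 10 member windows (35.7%) and in 31.1% of all windows. The shares among the members were thus near those of all windows. The sequences below were picked from windows that hold an ISRE or NF-κB match and whose acetylation is described in the next paragraphs. Each match is in capitals.
CCL2 window at -3029 bp, a pair of NF-κB matches, chr17:34252636-34252694, plus strand: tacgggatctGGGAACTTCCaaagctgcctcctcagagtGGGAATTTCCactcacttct
CCL2 window at -12483 bp, ISRE matches, chr17:34242651-34242839, plus strand: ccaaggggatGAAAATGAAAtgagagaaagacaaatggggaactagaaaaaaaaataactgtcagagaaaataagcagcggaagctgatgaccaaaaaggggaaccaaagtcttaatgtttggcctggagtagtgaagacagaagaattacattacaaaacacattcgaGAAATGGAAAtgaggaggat
CCL8 window at -11702 bp, NF-κB match at chr17:34307359-34307368, plus strand: gcaaaacacaGGGACTTTCCaactgcaggc
CCL8 windows at -332 and 201 bp, ISRE match at chr17:34319171-34319180, minus strand: tgatttccttGAAATGGAAAattgtctata
CCL5 window at -9809 bp, an ISRE match followed by NF-κB matches on the minus and plus strands, chr17:35890159-35890312, plus strand: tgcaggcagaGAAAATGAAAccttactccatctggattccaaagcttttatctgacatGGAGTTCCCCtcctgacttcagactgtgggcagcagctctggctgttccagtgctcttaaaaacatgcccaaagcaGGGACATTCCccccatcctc
CCL5 window at -93 bp, NF-κB match at chr17:35880418-35880427, plus strand: atcccctaagGGGAGTTTCCaaaatagcaa
The CCL2 window at -12483 bp held another ISRE match outside the stretch shown, and the CCL5 window at -9809 bp held another pair of NF-κB matches that overlap each other. The CCL5 window at -93 bp held 3 NF-κB matches and 1 AP-1 match in all. The CCL3 window and the windows over the starts of CCL4 and CCL4L2 held no match to any of the 3 motifs in these letters. The same held for the CCL8 window at -4658 bp and the CCL2 window at -11139 bp. The CCL8 window at -12435 bp held AP-1 matches alone. Acetylation at these last CCL8 and CCL2 windows was nonetheless called higher with IFN in USP18-/- cells. A link between motif matches and acetylation was not tested.

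Between 9046141 and 12935453.5 tags fell in the windows of a library, and values are given as CPM, the usual tag count relative to the library total, here the total in the windows after edgeR's TMM scaling. Since all windows are 1000 bp long, CPM can be compared between genes per length. The USP18 start, checked first, held 7.77 and 7.54 CPM in untreated WT cells, 17.9 and 14.8 with IFN, 8.11 and 8.40 in untreated USP18-/- cells and 48.6 and 41.1 with IFN, and H3K27ac there does not test the deletion. All 9 monocytic markers had a window at their start. Their summed level was 199 to 207 CPM in WT and 209 to 224 CPM in USP18-/- libraries, but single markers differed within it, in either direction. MPO stood at 48.4 to 56.1 CPM in WT, 16.2 and 18.2 in untreated USP18-/- and 4.73 and 3.80 in IFN treated USP18-/- libraries. Of the markers of other cells, the T cell, epithelial, fibroblast and B cell genes summed to at most 9.50 CPM per list in any library, and CD3D, CD3E, MS4A1 and the erythroid genes had no window. SPI1 went the other way, with 63.9 to 73.7 CPM in WT, 97.5 and 98.5 in untreated USP18-/- and 129 and 127 CPM in IFN treated USP18-/- libraries. CD14 held 3.14 to 4.91 CPM in WT and 7.08 to 8.71 in USP18-/- libraries, and LYZ 5.61 and 4.54 CPM in IFN treated USP18-/- against 10.9 to 14.2 in all other libraries. The part of these marker shifts in the results below was not tested. Scaled by the sum of counts, the median log2 change of all windows was -0.14 for IFN in USP18-/- cells and -0.12 for the difference of the IFN effects. It was -0.16 and -0.27 for USP18-/- against WT without and with IFN. By TMM these medians were -0.01, 0.00, -0.02 and 0.00 in the same order, and changes below are relative to the TMM median.

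In IFN treated WT cells none of the member windows passed the test, whereas in USP18-/- cells acetylation was higher at many of them, before and above all after IFN. A window was called at a change over 2-fold and an adjusted p under 0.05 in the quasi-likelihood test of edgeR, the p-values of 123276 windows being adjusted together by Benjamini-Hochberg. Of the 28 member windows 24 had enough counts to be tested, and a window that is high in any pair of libraries passes that filter. IFN in WT cells gave 0 of 24 calls in either direction by edgeR and 0 by DESeq2, with 2 higher and 0 lower at an unadjusted p under 0.05, where 0.344% of all windows were called higher and 0.0389% lower. Of these 24 windows only 15 pass the count filter on the WT libraries alone, and with these libraries alone 0 of 15 were called by edgeR. The other 9 passed through USP18-/- libraries and held few tags in WT cells, where a change could hardly be seen at this depth. For the same reason these 9 could hardly be called lower in USP18-/- than in WT cells. The counts of higher windows given below include several of them. Between untreated genotypes these are CCL2 at -34274 and -32348 bp and CCL8 at -11702 and 201 bp. With IFN, CCL8 at -4658 and -332 bp join them. For the difference they are CCL8 at -11702, -4658 and -332 bp, and for IFN in USP18-/- cells also CCL8 at 201 bp. The CCL8 windows at -332 and 201 bp needed the IFN treated USP18-/- libraries, where they are high, to pass the filter. IFN in USP18-/- cells gave 12 of 24 higher and 0 lower, against 7.11% and 4.42% of all windows. Untreated USP18-/- cells had 12 of 24 windows higher than untreated WT cells and 0 lower, against 5.69% and 10.8% of all windows. With IFN, 18 of 24 were higher in USP18-/- than in WT cells and 0 lower, against 11.3% and 13.5%. For the difference between the IFN effects (USP18-/- minus WT), 8 of 24 were higher and 0 lower, against 4.6% and 2.56% of all windows. Without the second untreated WT library, the count for untreated USP18-/- against WT cells was 7, and the count for the difference of the IFN effects was 5. It was also 5 without the first IFN treated USP18-/- library and by DESeq2. At an unadjusted p under 0.05 none of the members was lower in any of these comparisons. Since the members were chosen with earlier results of these data known, the shares are set beside those of all windows as a description.

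Over the 24 tested member windows the median was 0.09 for IFN in WT cells and 0.97 for IFN in USP18-/- cells, where the median of all windows was -0.01 in each case. It was 1.26 for untreated USP18-/- against WT cells and 2.03 with IFN, with all-window medians of -0.02 and 0.00. These contrasts share libraries, so they are set side by side and not as independent counts. Scaled by the sum of counts, the windows called over the whole table were 7478 higher and 7917 lower for IFN in USP18-/- cells (8768 and 5444 by TMM), 5008 and 16897 for untreated USP18-/- against WT cells (7019 and 13321), 8873 and 24003 with IFN (13934 and 16633), and 4694 and 4801 for the difference (5670 and 3151). Under that scaling the members had 11, 12, 16 and 6 windows called higher in the same order.

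**Figure D1:**
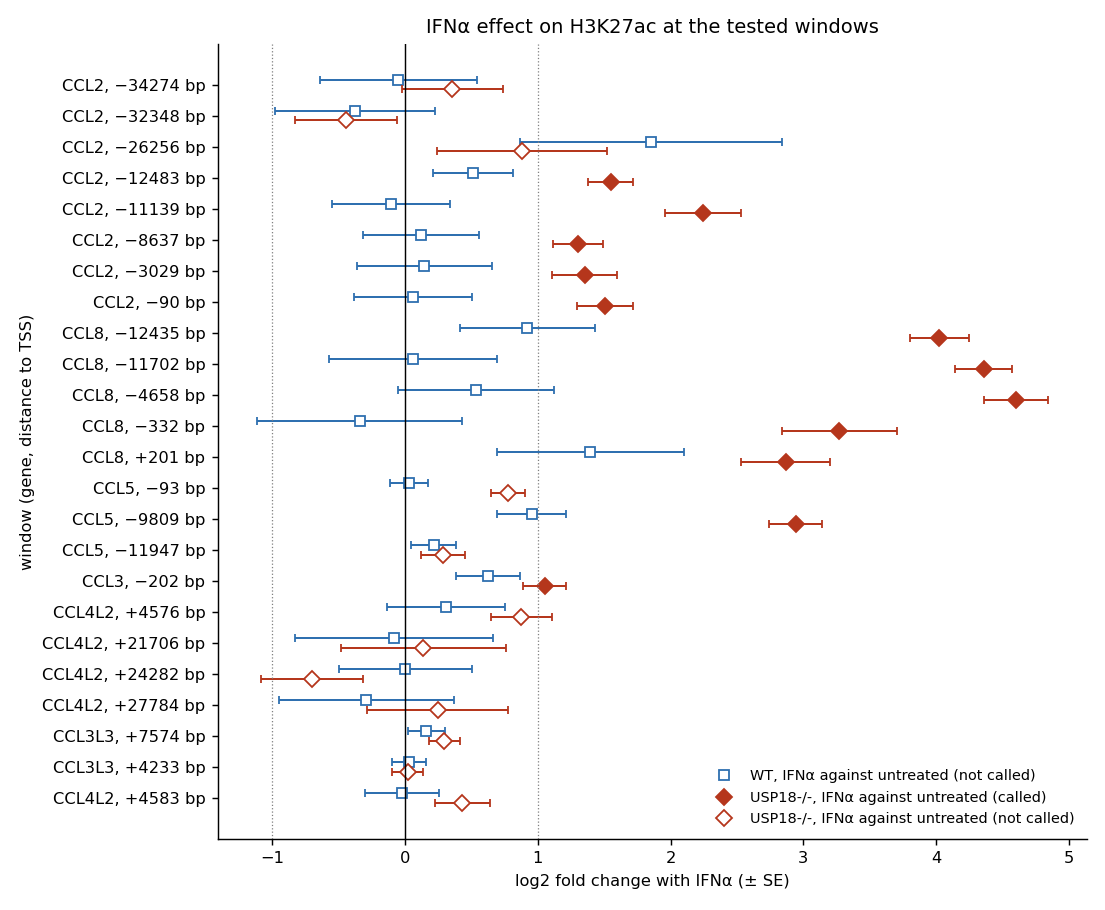
Log2 fold change of H3K27ac with IFNα (x axis, ± SE) at each of the 24 tested member windows (y axis, gene and distance to the TSS), in WT cells (blue squares) and USP18-/- cells (red diamonds). Filled points passed the test, dotted lines mark a 2-fold change, and all 12 filled points belong to USP18-/- cells, the farthest right being those of CCL8.

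CCL2, the main monocyte chemoattractant, was nearly bare of acetylation in WT cells and held more in untreated and still more in IFN treated USP18-/- cells. At the TSS window (-90 bp), replicates 1 and 2 held 1.02 and 1.08 CPM in untreated WT cells and 0.98 and 1.22 CPM in IFN treated WT cells. Untreated USP18-/- libraries held 4.14 and 4.01 CPM, and IFN treated USP18-/- libraries held 12.4 and 10.8 CPM. The WT groups overlapped each other, and the USP18-/- groups overlapped neither WT nor each other. USP18-/- cells were 3.85-fold above WT cells without IFN (log2 1.94, SE 0.33, edgeR adjusted p = 1.1e-06) and 10.5-fold above them with IFN (log2 3.39, SE 0.28, edgeR adjusted p = 4.4e-18). IFN raised the window 2.84-fold in USP18-/- cells (log2 1.51, SE 0.21, edgeR adjusted p = 1.0e-08), while in WT cells the log2 change was 0.06 (SE 0.44, edgeR adjusted p = 0.99).

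Upstream of CCL2, the window at -12483 bp, which holds 3 ISRE matches, was the most acetylated of this gene. It gave 2.25 and 2.15 CPM in untreated WT, 2.75 and 3.55 in IFN treated WT, 6.65 and 8.97 in untreated USP18-/- and 23.6 and 21.9 CPM in IFN treated USP18-/- libraries. No group overlapped another, but the WT groups lay within 2 CPM of each other and did not pass the test (log2 0.51, SE 0.30, edgeR adjusted p = 0.65). In USP18-/- cells IFN raised it 2.92-fold (log2 1.55, SE 0.17, edgeR adjusted p = 1.4e-12), from a level 3.52-fold above WT (log2 1.81, SE 0.25, edgeR adjusted p = 3.9e-09). The window at -8637 bp held 12 and 10 tags in untreated WT, 12 and 11 in IFN treated WT, 78 and 63 in untreated USP18-/- and 184.5 and 166 tags in IFN treated USP18-/- libraries. It showed the highest ratio of USP18-/- to WT cells among the CCL2 windows, 6.01-fold without IFN (log2 2.59, SE 0.30, edgeR adjusted p = 2.4e-11) and 13.6-fold with IFN (log2 3.77, SE 0.26, edgeR adjusted p = 5.7e-22). The window at -3029 bp with the pair of NF-κB matches held 0.81 ± 0.13 CPM in untreated WT, 3.36 ± 0.11 CPM in untreated USP18-/- and 8.61 ± 2.5 CPM in IFN treated USP18-/- cells (SD, n = 2), and both steps were called.

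Of the 10 CCL2 windows 8 were tested, and IFN raised 5 of these in USP18-/- cells, all between -12483 and -90 bp. The window at -11139 bp differed from its neighbours in that untreated USP18-/- cells (1.69 ± 0.31 CPM) were not called above untreated WT cells (1.20 ± 0.84 CPM; SD, n = 2), and with IFN it reached 8.00 ± 0.84 CPM. The windows at -34274 and -32348 bp stood higher in USP18-/- than in WT cells without IFN, by 1.34 (SE 0.48, edgeR adjusted p = 0.022) and 1.61 on the log2 scale (SE 0.45, edgeR adjusted p = 0.0030), and were not called for IFN. The window at -26256 bp, with 1 to 16 tags, passed no test. The overlapping windows downstream at 6459 and 6857 bp held 0 to 10.5 tags and did not pass the count filter.

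**Figure D2:**
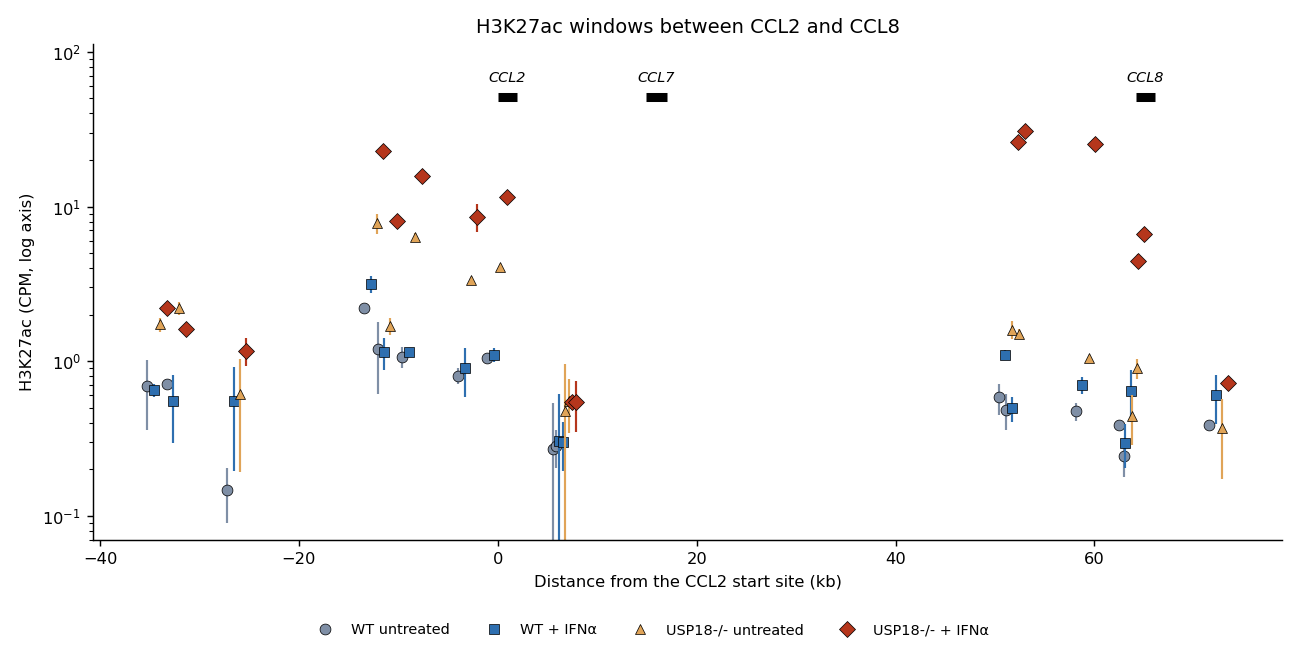
H3K27ac (y axis, CPM, log axis) of the CCL2 and CCL8 windows along the chromosome (x axis, kb from the CCL2 start), with the group mean as a point and the 2 libraries as the ends of the line; points are set slightly apart sideways by group, values below the axis are drawn at its foot, and black bars are the genes. Red diamonds (IFN treated USP18-/-) stand above the other groups at the 5 windows from -12483 bp to the CCL2 start and again upstream of CCL8, and no member window lies over CCL7.

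CCL8, which attracts monocytes and also T cells and eosinophils, was the gene with the largest IFN changes among the members. The 3 windows between -12435 and -4658 bp held 3.5 to 12 tags in any WT library, 11 to 19 tags in untreated USP18-/- libraries and 253.5 to 358.5 tags in IFN treated USP18-/- libraries. At -11702 bp, where the NF-κB match lies close to the middle of the window, the libraries gave 0.61 and 0.36 CPM in untreated WT, 0.59 and 0.41 in IFN treated WT, 1.38 and 1.62 in untreated USP18-/- and 31.4 and 30.4 CPM in IFN treated USP18-/- cells. The WT groups overlapped, the untreated USP18-/- libraries stood above them, and the IFN treated USP18-/- libraries stood far above all others. IFN raised the window 20.5-fold in USP18-/- cells (log2 4.36, SE 0.22, edgeR adjusted p = 4.2e-30), and in WT cells the log2 change was 0.06 (SE 0.63, edgeR adjusted p = 0.99). With so few tags in WT cells, a change there of about the size of its error would not be seen at this depth. Untreated USP18-/- cells stood above WT cells there (log2 1.62, SE 0.48, edgeR adjusted p = 0.0051). Without the second untreated WT library this difference was 1.27 (edgeR adjusted p = 0.10).

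The IFN treated genotypes differed by 5.92 on the log2 scale at -11702 bp (SE 0.27, edgeR adjusted p = 4.6e-32), the largest such value among the member windows. The overlapping window at -12435 bp and the window at -4658 bp followed, with 25.8 and 26.2 CPM at the former and 27.5 and 23.5 CPM at the latter in IFN treated USP18-/- cells, and rises with IFN of 4.02 and 4.60 on the log2 scale. Acetylation over the start itself was lower. The window at 201 bp gave 0.31 and 0.18 CPM in untreated WT, 0.88 and 0.41 in IFN treated WT, 1.04 and 0.76 in untreated USP18-/- and 6.49 and 6.86 CPM in IFN treated USP18-/- cells. Untreated WT libraries were the lowest and IFN treated USP18-/- libraries the highest, and the other groups overlapped each other. IFN raised the window 7.28-fold in USP18-/- cells (log2 2.86, SE 0.33, edgeR adjusted p = 1.9e-11). In untreated cells the genotypes differed by 1.87 at 201 bp (SE 0.64, edgeR adjusted p = 0.017), a call lost by DESeq2 (adjusted p = 0.056), with promoter and distal windows scaled apart (edgeR adjusted p = 0.059) and without the second untreated WT library or the first untreated USP18-/- library (edgeR adjusted p = 0.16 and 0.12). The window at -332 bp overlaps it by 468 bp and reached 4.03 and 4.91 CPM in IFN treated USP18-/- libraries, against at most 0.60 CPM in every other library. The window downstream, at 8735 bp, held 1.5 to 9 tags and was not tested.

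CCL5 (RANTES), which attracts T cells and monocytes, held acetylation in all libraries at its promoter and at the farther of its upstream windows. The promoter window (-93 bp) held 16.8 and 15.6 CPM in untreated WT, 16.0 and 17.1 in IFN treated WT, 21.4 and 19.8 in untreated USP18-/- and 39.3 and 31.3 CPM in IFN treated USP18-/- libraries. IFN treated USP18-/- libraries were the highest. The IFN change in these cells was 0.78 on the log2 scale (SE 0.13, edgeR adjusted p = 4.2e-07), which is under 2-fold and was not called. With IFN, USP18-/- cells were 2.14-fold above WT cells (log2 1.10, SE 0.13, edgeR adjusted p = 2.3e-11). This call is close to the threshold, since the log2 value was 0.82 when scaled by the sum of counts, 0.98 by the tag directory totals, 0.74 when promoter and distal windows were scaled apart and 0.90 without the first IFN treated USP18-/- library.

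The intergenic CCL5 window at -9809 bp, which holds 1 ISRE and 4 NF-κB matches, was the window of this gene called for IFN. It gave 2.05 and 3.23 CPM in untreated WT, 5.49 and 4.87 in IFN treated WT, 2.68 and 3.05 in untreated USP18-/- and 20.7 and 23.4 CPM in IFN treated USP18-/- libraries. Untreated cells of the genotypes overlapped (log2 0.10, SE 0.29, edgeR adjusted p = 0.85). IFN raised it 7.68-fold in USP18-/- cells (log2 2.94, SE 0.20, edgeR adjusted p = 6.9e-22). In WT cells the libraries did not overlap either, but the log2 change of 0.95 (SE 0.26, edgeR adjusted p = 0.055) was not called. The neighbouring window at -11947 bp stayed between 8.97 and 13.5 CPM in all 8 libraries, and its log2 changes were between -0.10 and 0.28 in the 4 contrasts of groups.

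**Figure D3:**
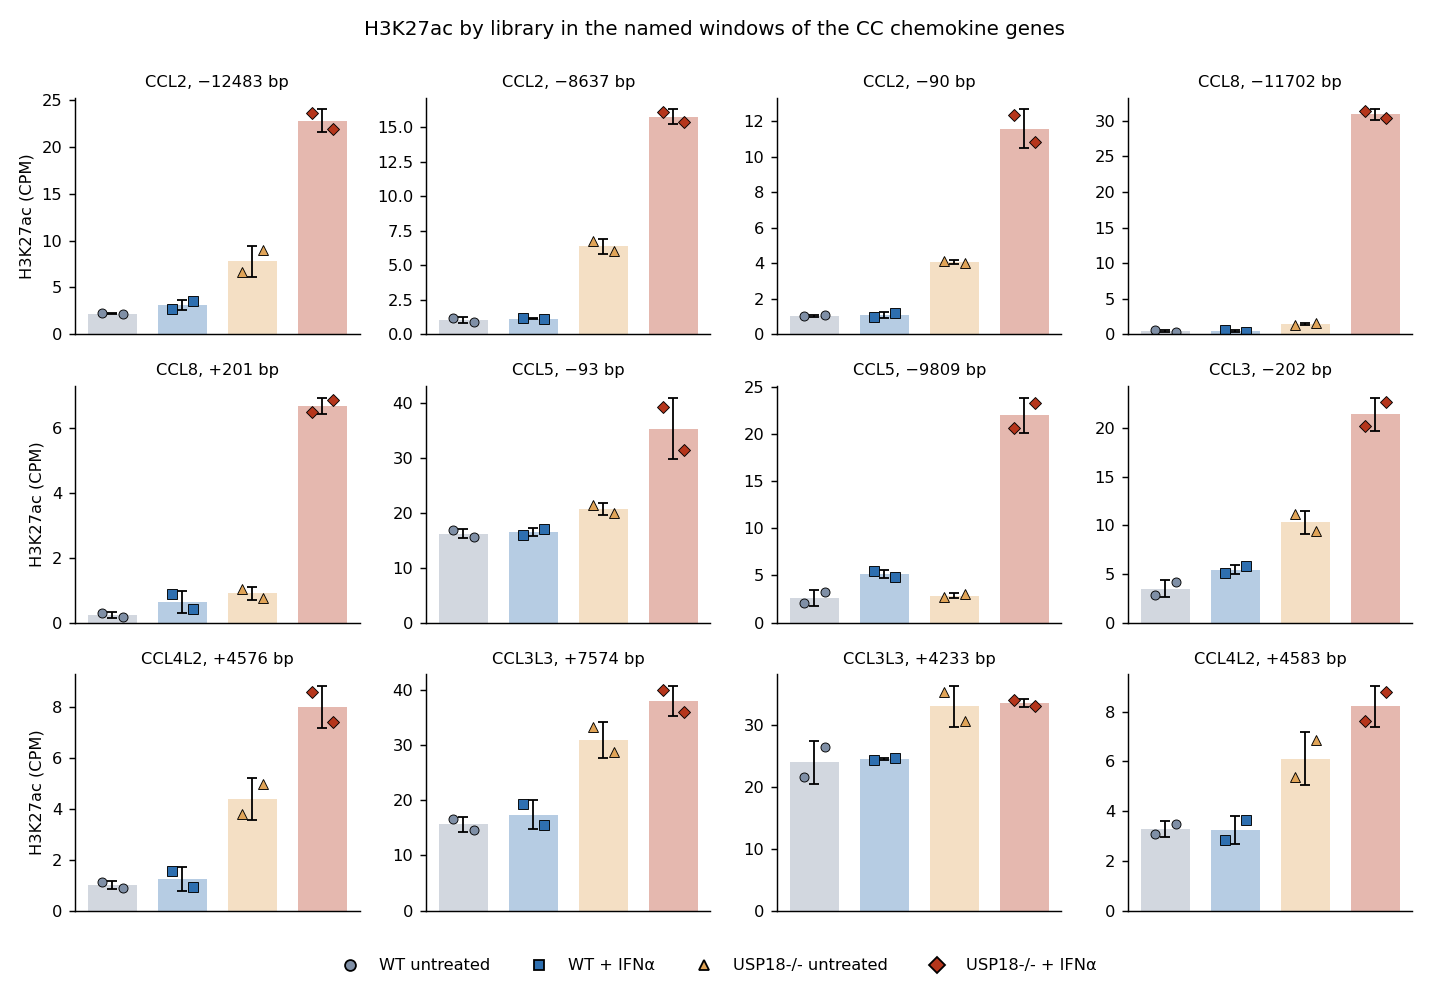
H3K27ac (y axis, CPM) in each library (points) with the group mean (bar) and SD (error bar, n = 2) for 12 windows named by gene and distance to the TSS, with colors for WT untreated, WT with IFNα, USP18-/- untreated and USP18-/- with IFNα. At CCL8 -11702 bp the last group stands at 31.4 and 30.4 CPM and all others are at or below 1.62 CPM, while at CCL3L3 4233 bp the groups lie between 21.5 and 35.3 CPM.

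CCL3 (MIP-1α), an early attractant of monocytes and T cells, had its only member window over its promoter. The libraries gave 2.86 and 4.13 CPM in untreated WT, 5.10 and 5.79 in IFN treated WT, 11.1 and 9.44 in untreated USP18-/- and 20.2 and 22.6 CPM in IFN treated USP18-/- cells. The groups stood in that order without overlap. USP18-/- cells were 2.92-fold above WT cells without IFN (log2 1.54, SE 0.21, edgeR adjusted p = 5.6e-09) and 3.92-fold with IFN (log2 1.97, SE 0.18, edgeR adjusted p = 5.9e-16). IFN raised the window 2.07-fold in USP18-/- cells (log2 1.05, SE 0.16, edgeR adjusted p = 8.9e-08), and in WT cells the log2 change was 0.62 (SE 0.24, edgeR adjusted p = 0.34). The IFN call in USP18-/- cells rests on the fold threshold: the log2 change was 0.92 when scaled by the sum of counts, 0.98 by the tag directory totals, 0.94 without the second untreated USP18-/- library and 0.96 without the second IFN treated one. Reads from this strandless assay over CCL3 and CCL3-AS1 cannot be told apart.

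The windows named CCL4L2, a copy of CCL4 (MIP-1β), gave 2 of 5 tested windows higher in USP18-/- than in WT cells in either state, and none was called for IFN in USP18-/- cells. The window at 4576 bp, which lies behind CCL4, gave 1.13 and 0.90 CPM in untreated WT, 1.57 and 0.91 in IFN treated WT, 3.80 and 4.96 in untreated USP18-/- and 8.59 and 7.41 CPM in IFN treated USP18-/- libraries. The WT groups overlapped and both USP18-/- groups stood above them, by 2.10 on the log2 scale without IFN (SE 0.34, edgeR adjusted p = 3.4e-07) and 2.67 with IFN (SE 0.30, edgeR adjusted p = 1.8e-12). The IFN change in USP18-/- cells was 0.88 (SE 0.23, edgeR adjusted p = 0.0020), and without the second untreated USP18-/- library it was 1.08 and called. The matching window behind CCL4L2 itself, at 4583 bp, gave 3.07 and 3.50, 2.85 and 3.66, 5.35 and 6.87, and 7.63 and 8.80 CPM in the same order of groups. With IFN the genotypes differed there by 1.34 (SE 0.24, edgeR adjusted p = 1.7e-06), and without IFN by 0.88, or 1.06 without the first untreated USP18-/- library and 1.03 with promoter and distal windows scaled apart, both called. Of the 32-base stretches of the window at 4576 bp 42.6% recur in the one at 4583 bp. Of the 100-base stretches of either window 6.1% recur in the genome, so their values may not be fully independent. The windows at 21706, 24282 and 27784 bp held at most 28.5 tags, and of these only that at 24282 bp was called, for untreated USP18-/- against WT cells (log2 1.17, SE 0.41, edgeR adjusted p = 0.020). The window at 18763 bp, with 48.2% of its 100-base stretches found elsewhere in the genome, held at most 5.5 tags and was not tested.

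CCL3L3, a copy of CCL3, had a pair of windows downstream of the gene that were acetylated in every library. At 7574 bp the libraries gave 16.6 and 14.6 CPM in untreated WT, 19.2 and 15.5 in IFN treated WT, 33.1 and 28.6 in untreated USP18-/- and 39.9 and 36.0 CPM in IFN treated USP18-/- cells. USP18-/- libraries stood above WT libraries in either state. The genotypes differed by 0.99 on the log2 scale without IFN (SE 0.13, edgeR adjusted p = 1.6e-09), just under the 2-fold threshold (1.08 without the first untreated WT and 1.09 without the second untreated USP18-/- library, 1.00 by DESeq2 and 1.14 with promoter and distal windows scaled apart, all called), and by 1.12 with IFN (SE 0.13, edgeR adjusted p = 3.6e-12). The latter was 0.85 when scaled by the sum of counts and 0.98 without the second IFN treated WT library. At 4233 bp the values were 21.5 and 26.3, 24.3 and 24.6, 35.3 and 30.6, and 33.9 and 33.0 CPM, again higher in USP18-/- cells but by less than 2-fold (log2 0.46 without and 0.45 with IFN), and IFN changed them by 0.03 in WT and 0.02 in USP18-/- cells (SE 0.13 and 0.12), neither called.

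The windows over the starts of the copy genes, listed as CCL4L1 and CCL3L1, were all higher in USP18-/- than in WT cells and rose with IFN in USP18-/- cells. Over the start of CCL4 (chr17:36103138-36104138) acetylation was 0.86 ± 0.056 CPM in untreated WT, 1.00 ± 0.45 in IFN treated WT, 2.76 ± 0.25 in untreated USP18-/- and 10.0 ± 0.18 CPM in IFN treated USP18-/- cells (SD, n = 2), and IFN raised it in USP18-/- cells by 1.86 on the log2 scale (SE 0.24, edgeR adjusted p = 7.0e-10). Over the start of CCL4L2 (chr17:36210377-36211377) the means were 1.97 ± 0.11, 1.89 ± 0.38, 9.14 ± 0.51 and 20.3 ± 2.3 CPM in the same order (SD, n = 2). Untreated USP18-/- cells were 4.64-fold above WT cells there (log2 2.22, SE 0.25, edgeR adjusted p = 4.0e-12), and IFN added 1.15 (SE 0.16, edgeR adjusted p = 1.6e-08). Over the start of CCL3L3 (chr17:36196399-36197399) the levels were 13.5 ± 3.8, 18.0 ± 0.79, 30.6 ± 0.37 and 86.6 ± 0.070 CPM (SD, n = 2). IFN raised this window 2.82-fold in USP18-/- cells (log2 1.50, SE 0.11, edgeR adjusted p = 1.2e-20), whereas the WT change of 0.40 was not called (SE 0.14, edgeR adjusted p = 0.25). The window 7204 bp behind CCL3 had 7.22 ± 0.96, 7.92 ± 1.0, 16.1 ± 0.47 and 25.9 ± 1.9 CPM (SD, n = 2) and was called between the genotypes in either state, and not for IFN. The windows at -6019 and -6758 bp of CCL3L3 held 1.99 to 7.11 CPM in group means and were called in none of the 4 contrasts of groups, while the difference of the IFN effects was called at -6758 bp (log2 1.39, SE 0.42, edgeR adjusted p = 0.018).

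**Figure D4:**
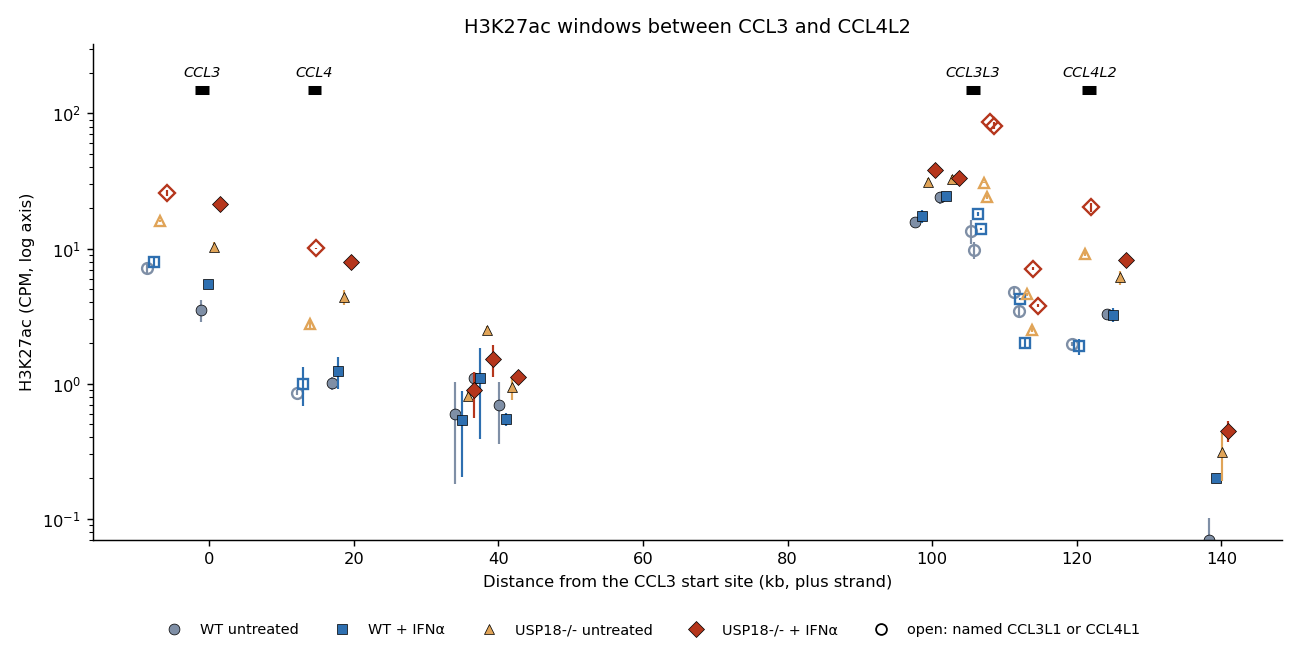
H3K27ac (y axis, CPM, log axis) of the windows from CCL3 to CCL4L2 along the chromosome (x axis, kb from the CCL3 start, plus strand), drawn as in the CCL2 to CCL8 profile, with filled points for member windows and open points for windows listed as CCL3L1 or CCL4L1. The open diamonds over the CCL3L3 start are the highest, with a mean of 86.6 CPM in IFN treated USP18-/- cells.

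The effect of IFN differed between the genotypes at windows of CCL8, CCL2 and CCL5. The difference of the log2 changes (USP18-/- minus WT) was 4.30 at CCL8 -11702 bp (SE 0.77, edgeR adjusted p = 1.2e-05), 2.35 at CCL2 -11139 bp (SE 0.54, edgeR adjusted p = 8.5e-04) and 1.99 at CCL5 -9809 bp (SE 0.35, edgeR adjusted p = 1.0e-05). Of the 5 tested CCL8 windows 4 were called in this comparison, and the exception was the window at 201 bp (log2 1.47, SE 0.91, edgeR adjusted p = 0.37). At CCL2, 3 of 8 tested windows were called, at -12483, -11139 and -90 bp. The CCL2 start differed by 1.45 (SE 0.50, edgeR adjusted p = 0.044), and without a given library the adjusted p was 0.069 to 0.18 in 7 of 8 cases, the exception being the second IFN treated USP18-/- library. The call was also lost by DESeq2, with either other scaling of the libraries (sum of counts or tag directory totals) and without the count filter. At CCL2 -12483 bp the difference was 1.03 (SE 0.35, edgeR adjusted p = 0.038), a call lost by DESeq2, with either other scaling and without either untreated WT library, the first IFN treated WT library, the first untreated USP18-/- library or the first IFN treated USP18-/- library. For CCL3, CCL4L2 and CCL3L3 the difference was called at none of their 8 tested windows and lay between -0.70 and 0.57, although over the starts of CCL4, CCL4L2 and CCL3L3 it was called at 1.65, 1.20 and 1.10 (SE 0.55, 0.38 and 0.18; edgeR adjusted p = 0.035, 0.024 and 1.6e-06).

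Summed over the windows that carry each member's name, overlapping windows included, CCL8 went from the lowest to the highest of the 6 genes. Its 6 windows together held 2.55 ± 0.44 CPM in untreated WT, 3.84 ± 0.54 in IFN treated WT, 5.86 ± 0.35 in untreated USP18-/- and 94.3 ± 2.4 CPM in IFN treated USP18-/- cells (SD, n = 2). The 10 CCL2 windows held 8.43 ± 0.64, 9.82 ± 3.1, 28.9 ± 1.8 and 72.8 ± 0.99 CPM, and the 3 CCL5 windows 30.2 ± 1.1, 34.9 ± 0.21, 34.1 ± 3.1 and 70.3 ± 2.9 CPM. In untreated WT cells the order of the sums was CCL3L3, CCL5, CCL2, CCL4L2, CCL3 and CCL8, and in IFN treated USP18-/- cells it was CCL8, CCL2, CCL3L3, CCL5, CCL3 and CCL4L2. In the latter order CCL2, CCL3L3 and CCL5 did not differ beyond their spread, nor did CCL3 and CCL4L2. In untreated WT cells CCL3 and CCL8 did not differ beyond their spread. The sums and their order depend on how many windows a gene has and on the names in the table. The window over the CCL3L3 start, listed as CCL3L1, held 86.6 CPM in IFN treated USP18-/- cells and is not in the CCL3L3 sum. With it CCL3L3 would stand above CCL8 in that group. Of the windows summed as CCL4L2, 4 lie behind CCL4.

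**Figure D5:**
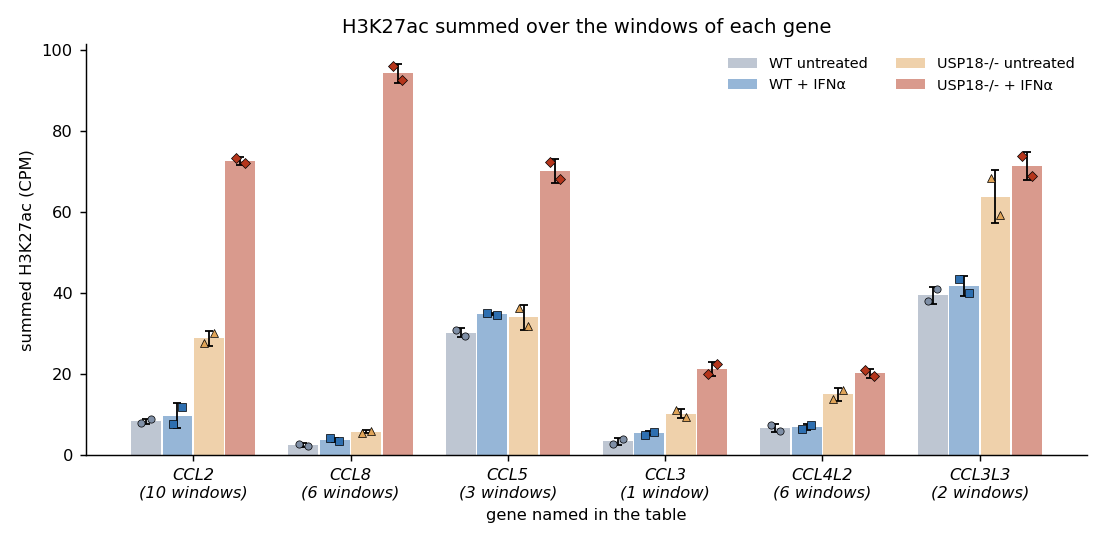
H3K27ac summed over the member windows of each gene (y axis, CPM) by group, with bars as means, error bars as SD (n = 2) and points as libraries. CCL8 rises from 2.55 CPM in untreated WT to 94.3 CPM in IFN treated USP18-/- cells, while the CCL3L3 sum is 39.5 CPM in untreated WT and 71.4 CPM in IFN treated USP18-/- cells.

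At windows within 3000 bp of a TSS and with a mean of at least 1 CPM, the patterns over the 8 libraries most like those of the members were sought among 25462 windows of other genes, by Pearson's r of log2(CPM + 0.1) and as a description. They were BAG6 (r = 0.999) and RHBDD1 (r = 0.998) for CCL2, IREB2 and SNAPIN (r = 0.996 each) for CCL8, ACAD9 and SCLT1 (r = 0.997 each) for CCL5, and ZXDB (r = 0.996) and TLR7 (r = 0.995) for CCL3. These libraries share genotype and treatment within groups of 2. The likeness is of shape and not of size: CCL2 at its start rose from 1.05 to 11.6 CPM between untreated WT and IFN treated USP18-/- cells, and BAG6 from 102 to 190 CPM.

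Among the other genes of the family on chromosome 17, which include CCL3L1 and CCL4L1, 8 of 20 tested windows (40%) were higher with IFN in USP18-/- cells. Without IFN, 6 of 20 (30%) were higher in USP18-/- than in WT cells. None was lower in either comparison. Of all windows, 7.11% and 5.69% were called higher in these comparisons, and 4.42% and 10.8% lower. Windows listed as CCL3L1 and CCL4L1, which lie over or beside member genes, gave 2 and 2 of the 8 calls and 3 and 2 of the 6. The remaining call without IFN was 1 of the 4 tested CCL1 windows. With IFN the remaining calls were 2 of CCL1 and 1 each of CCL11 and CCL13. The eosinophil attractant CCL11 and the monocyte attractant CCL13, both neighbours of CCL8, had 1 window each, and these rose with IFN in USP18-/- cells by 2.19 and 1.80 on the log2 scale. The CC chemokine genes on other chromosomes gave 1 window higher and 1 lower of 53 tested with IFN in USP18-/- cells, and 0 higher and 9 lower in untreated USP18-/- against WT cells. Windows of the same 2 chromosome stretches that carried no CC chemokine name, 18 tested, gave no calls for IFN in USP18-/- cells or for untreated USP18-/- against WT cells, and 4 higher with IFN between the genotypes. The shares of all windows called higher were 7.11%, 5.69% and 11.3% in the same order. With 18 windows, the lack of calls in the first comparisons cannot be told from such shares.

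The receptor genes gave 21 higher and 3 lower of 65 tested windows with IFN in USP18-/- cells, and 0 higher and 9 lower in untreated USP18-/- against WT cells. With IFN these were 32.3% and 4.62%, against 7.11% and 4.42% of all windows, and untreated 13.8% lower, against 10.8%. Of the windows of CCR1, which binds CCL3 and CCL5, 8 of 12 rose with IFN in USP18-/- cells and 1 fell, and of the windows of CCR2, the receptor of CCL2, CCL7 and CCL8, 0 of 8 were called for IFN and 1 was lower in untreated USP18-/- cells. The textbook NF-κB genes had 16 of 52 tested windows higher in USP18-/- than in WT cells without IFN and none lower. The calls were uneven over these genes. All 4 windows of the adhesion molecule ICAM1 and 4 of 7 of the NF-κB subunit RELB were higher. By contrast, 0 of 10 NFKBIA, 0 of 6 IL1B and 0 of 4 NFKB1 windows were. The share of windows of all these NF-κB genes higher without IFN was 30.8%, against 5.69% of all windows. With IFN in USP18-/- cells 4 of the 52 rose and 2 fell (7.69% and 3.85%), near the shares of all windows (7.11% and 4.42%). The interferon reference genes differed from both: 19 of 52 tested windows rose and 1 fell with IFN in WT cells, 27 rose in USP18-/- cells, and 1 was higher and 1 lower in untreated USP18-/- against WT cells. IFIT1, an antiviral interferon target, had all 3 windows called for IFN in WT cells, with log2 rises of 1.73 to 2.36.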

How the data were processed

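H3K27ac ChIP-seq libraries of THP-1 cells were compared. The authors mapped reads to hg38 with Bowtie2, made HOMER tag directories and counted tags over ATAC-seq peaks merged across samples, each taken as 1000 bp. The deposited values are expected counts, that is fractional tags in steps of 0.5 (52.2% whole numbers) without normalization. Tool versions are not given in the sources used here.

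Values were rounded, and a window was tested where 2 or more of the 8 libraries reached 10 counts (123276 of 151654). edgeR 4.0.16 (limma 3.58.1, R 4.3.3) with TMM factors, 1 mean per group and the quasi-likelihood test gave log2 changes, SE and Benjamini-Hochberg adjusted p. Library totals in the windows were 36.1% to 42.5% of the tag directories, and low windows rest on few tags. DESeq2 1.42.0 and the other settings of the closing section were alternatives. The steps were tested on simulated data.

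Windows with values in every library are the nearest to each member's TSS and that with the smallest adjusted p, plus the called one with the largest mean CPM. The members and gene lists were chosen with earlier results of these data known. Sequences came from hg38, indexed with samtools 1.23.1, in which all 151654 windows lie, and gene models from GENCODE 44.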

Additional observations from a re-analysis of the deposited data

Results flagged for a closer look

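The IFN effect differed between the genotypes in the same fit at 4 of the named windows, all with a larger rise in USP18-/- cells. The difference (USP18-/- minus WT, log2) was 4.30 at CCL8 -11702 bp and 1.99 at CCL5 -9809 bp, and 1.03 at CCL2 -12483 bp (SE 0.35, edgeR adjusted p = 0.038) and 1.45 at the CCL2 start. Groups of 2 libraries were too small for a test of single outlying libraries.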

How the results depend on the processing

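Counts of member windows called lower were 0 under every setting tried, and those called higher for IFN in WT cells were 0 as well. For IFN in USP18-/- cells the alternatives gave 10 to 14 windows higher (12 as reported), and for USP18-/- against WT cells with IFN 16 to 19 (18). For untreated USP18-/- against WT cells, leaving out each library gave 7 to 12 (12). For the difference of the IFN effects the count was 5 by DESeq2 and 5 to 7 with each library left out (8). The replicate block, using replicate numbers whose libraries did not deviate together (r from -0.0029 to 0.046), gave 0, 12, 12, 18 and 8 windows higher and changed no count, so the numbers were not taken to pair the libraries.

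Of the 60 named log2 changes 29 were called, 22 of these kept call and direction under every setting and 0 changed sign. Changes of sign were confined to uncalled values near 0. For IFN in WT cells, leaving out each library gave -0.10 to 0.35 at CCL2 -8637 bp, -0.10 to 0.21 at CCL2 -90 bp, -0.29 to 0.46 at CCL8 -11702 bp (-0.16 with unrounded tags), -0.023 to 0.081 at CCL5 -93 bp, -0.13 to 0.64 at CCL4L2 4576 bp, -0.21 to 0.15 at CCL4L2 4583 bp, -0.0024 to 0.30 at CCL3L3 7574 bp and -0.11 to 0.19 at CCL3L3 4233 bp. At CCL3L3 4233 bp, the change with IFN in USP18-/- cells was -0.076 to 0.10 (-0.11 by the sum of counts, -0.0456 by tag directory totals) and the difference of the IFN effects -0.16 to 0.13 (0.030 with promoter and distal windows apart). That difference was -0.0071 to 0.30 at CCL3L3 7574 bp. At CCL5 -9809 bp untreated USP18-/- against WT cells gave -0.18 to 0.48 (-0.0479 by the sum of counts). The causes were not tested. The difference of the IFN effects lost its call at CCL2 -12483 bp by DESeq2 (adjusted p = 0.095), the sum of counts (edgeR adjusted p = 0.079), tag directory totals (0.065) and with 5 of the libraries left out in turn, and at CCL2 -90 bp by DESeq2 (adjusted p = 0.10), the sum of counts (edgeR adjusted p = 0.072), tag directory totals (0.064), without the filter (0.055) and with 7 libraries left out in turn.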
